A study of Bos taurus with 6 samples.

Results

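Glutathione is the main small thiol of animal cells, and 10 genes that make, recycle or use it were described here in bovine vaginal epithelial cells (BVECs). The genes, chosen with earlier results of these libraries known, were GCLC, GCLM, GSS, GSR, GPX1, GPX4, GSTM3, GSTP1, MGST2 and MGST3. Each was matched by its symbol in a table of 18014 features, and 7 of the 10 were matched, each by 1 feature. GPX1, GPX4 and GSTP1 had no match by symbol and are not analysed here under these names. Whether GSTP1 is among the transferase features without a symbol, described below, was not tested. All 7 matched genes passed the filter on low values, which asked for an average of 0.5 FPKM or more across the 6 libraries. FPKM divides the fragments of a gene by the length of its exons and by the size of the library, so levels of different genes can be compared per length.

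The cells were primary BVECs from the vaginal tissue of healthy young cows, kept in culture and passaged. The treated group (SQ0048, 3 libraries) received 1 ml of Lactobacillus strain SQ0048, a bovine vaginal isolate, at 1000000000 CFU/ml for 4 h. The control group (3 libraries) received DMEM–F-12 medium for the same time. All cells were then washed with phosphate-buffered saline, to release unbound bacteria, before RNA was taken. They are biological replicates in the words of the study, but the number of cows or cultures behind them is not given in the sources read. The p-values thus cover only the variation among these libraries, and that variation may be technical.

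Cells build glutathione from glutamate, cysteine and glycine in a pair of ATP-dependent steps, of which the first limits the rate. Glutathione peroxidases use it to reduce peroxides, glutathione S-transferases attach it to electrophilic compounds, and glutathione reductase returns the oxidised form to the reduced one with NADPH. In human and mouse cells, several of these genes are known targets of NRF2, the transcription factor that responds to electrophiles and oxidants. In mucosal epithelia this thiol system is known for its part in protection against oxidants and foreign compounds.

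Of the 7 matched genes, 5 rose in BVECs incubated with the SQ0048 strain, namely MGST2, GSTM3, GCLM, GSR and GCLC, and none had a negative log2 fold change. GSS and MGST3 did not pass the test. Rose and fell stand here for an adjusted p under 0.05 in limma on log2(FPKM + 0.1), Benjamini-Hochberg adjusted over 13144 tested features. By that rule 24.4% of all tested features changed, 8.59% higher and 15.8% lower. The SQ0048 libraries lay above all control libraries in each of the 7 genes, which was so for 17.4% of the tested features. The cutoffs of the study, at least a 2-fold change and p under 0.05 before adjustment, were applied here to limma, not to a count test. They were met by 4 of the 7, against 2.24% of all features in that direction. The median log2 fold change was 1.29 over the 7 genes and -0.08 over all features. The genes were chosen with earlier results of these libraries known, so their counts describe them and are not independent evidence. The RNA came from bulk cultures, where more cells that express a gene and more of its RNA per cell cannot be told apart.

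**Figure D1:**
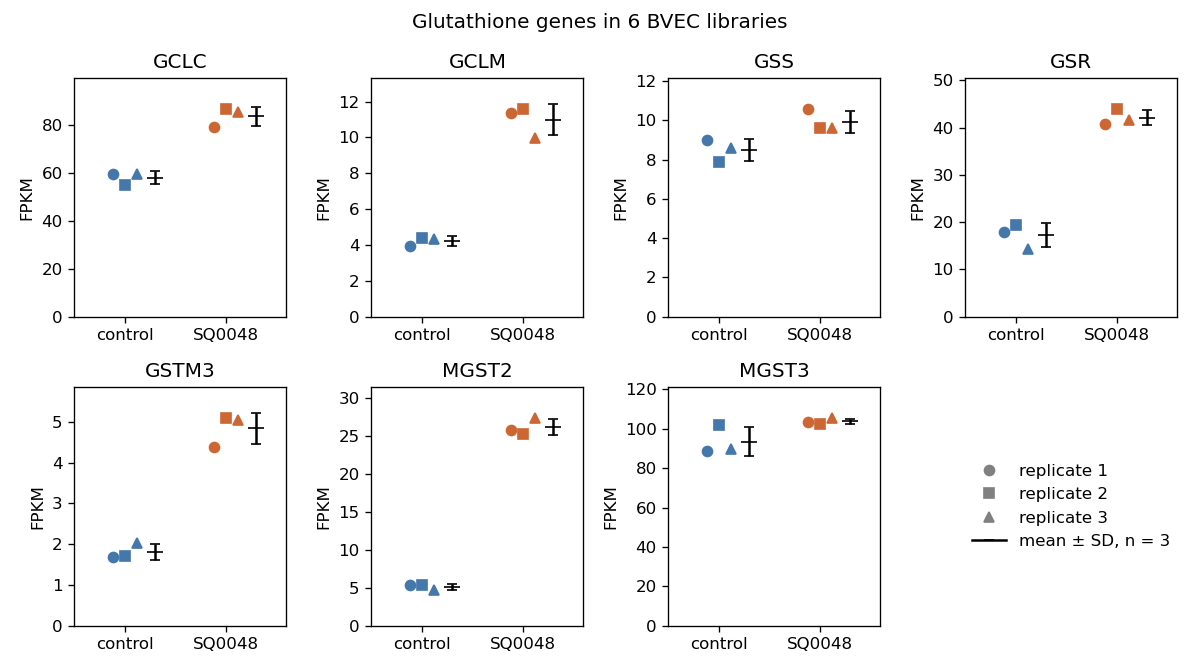
FPKM (linear axis from 0) of the 7 matched glutathione genes in the 3 control and 3 SQ0048 libraries, with each point a library and the bar the mean ± SD (n = 3). The groups are far apart for MGST2, GSTM3, GCLM, GSR and GCLC, and lie close together for GSS and MGST3, where the nearest libraries of the groups differ by 0.63 and 0.65 FPKM.

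Synthesis begins with glutamate-cysteine ligase, which joins glutamate to cysteine and is built from a catalytic subunit, GCLC, and a modifier subunit, GCLM, that raises its catalytic efficiency. GCLC measured 59.5, 54.8 and 59.7 FPKM without bacteria and 78.9, 86.4 and 85.1 FPKM with SQ0048. All SQ0048 libraries were at least 19.3 FPKM above the highest control library. The mean was 58.0 ± 2.77 FPKM in control and 83.5 ± 3.98 FPKM after SQ0048 treatment (SD, n = 3 each), and GCLC rose by 0.53 ± 0.06 in log2 (SE, limma adjusted p = 0.0055). GCLM was less abundant and measured 3.92, 4.40 and 4.33 FPKM without bacteria and 11.4, 11.6 and 9.98 FPKM with SQ0048. Again the groups did not overlap, and the lowest SQ0048 library stood 5.58 FPKM above the highest control. The log2 fold change of GCLM was 1.36 ± 0.09 (SE, limma adjusted p = 0.0014), from a mean of 4.22 ± 0.259 to 10.97 ± 0.865 FPKM.

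The 95% confidence interval of the log2 fold change was 1.13 to 1.58 for GCLM and 0.37 to 0.68 for GCLC. The ratio of GCLM to GCLC within a library, which does not depend on how libraries were scaled, was 0.0659, 0.0803 and 0.0726 in control and 0.144, 0.134 and 0.117 in SQ0048 libraries. The ratio was higher in each SQ0048 library than in any control library, with a difference in log2 of 0.85. The exact permutation test (two-sided, 3 against 3) gave p = 0.1, the smallest this design allows. GCLM made up 6.79% ± 0.628 of the summed FPKM of both subunits in control and 11.6% ± 1.06 in SQ0048 libraries (SD, n = 3 each), so that the catalytic subunit remained the more abundant transcript in both groups.

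GSS encodes glutathione synthetase, which adds glycine to complete the molecule. It measured 8.98, 7.86 and 8.60 FPKM without bacteria and 10.6, 9.62 and 9.61 FPKM with SQ0048. The groups did not overlap, and their nearest libraries differed by 0.63 FPKM. The log2 fold change was 0.23, with a 95% confidence interval of 0.03 to 0.42, and GSS was not called (limma adjusted p = 0.095). It was called after scaling by median-of-ratios size factors or by quantile normalization (0.304 and 0.32 in log2, adjusted p = 0.047 and 0.045 from limma, 0.045 to 0.302 over 15 alternatives).

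GSR, glutathione reductase, regenerates reduced glutathione at the cost of NADPH. Its control libraries held 17.9, 19.4 and 14.4 FPKM and its SQ0048 libraries 40.7, 43.8 and 41.7 FPKM. The SQ0048 libraries agreed more closely with each other than the controls did, with coefficients of variation of 3.79% and 14.9%. GSR rose by 1.29 ± 0.12 in log2 (SE, limma adjusted p = 0.0030). Set against GSS in the same library, GSR was at a ratio of 1.99, 2.47 and 1.67 in control and 3.86, 4.56 and 4.34 in SQ0048 libraries. The groups of ratios did not overlap and differed by 1.07 in log2 (exact permutation test, two-sided, p = 0.1, again the smallest possible).

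Glutathione transferases were represented by 1 soluble and 2 membrane enzymes. GSTM3 is a cytosolic transferase of the mu class and was the least abundant of the 7 genes. It measured 1.69, 1.70 and 2.04 FPKM without bacteria and 4.40, 5.09 and 5.05 FPKM with SQ0048. Each SQ0048 library was at least 2.36 FPKM above the controls. GSTM3 rose by 1.38 ± 0.12 in log2 (SE, limma adjusted p = 0.0025), and by 1.06 with a pseudocount of 1, since low values are damped by a larger pseudocount. Genes of the mu class resemble each other in sequence, and how fragments that fit several of them were assigned is not stated in the sources read. A feature that the table describes as Glutathione S-transferase Mu 1 measured 3.23, 3.11 and 3.31 FPKM without bacteria and 3.97, 4.57 and 4.36 FPKM with SQ0048 (log2 difference 0.41, limma adjusted p = 0.024, called under 7 of 14 alternatives).

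MGST2 and MGST3 encode small enzymes of intracellular membranes from the family that also holds leukotriene C4 synthase, and both have transferase and peroxidase activity. MGST2 showed the largest fold change of the 7 genes. It measured 5.36, 5.28 and 4.67 FPKM without bacteria and 25.8, 25.3 and 27.3 FPKM with SQ0048. No SQ0048 library came within 19.9 FPKM of a control library. The mean was 5.10 ± 0.377 FPKM in control and 26.1 ± 1.06 FPKM after SQ0048 treatment (SD, n = 3 each), 5.12 times as high, and the log2 fold change was 2.34 ± 0.08 (SE, limma adjusted p = 1.7e-04). Its 95% confidence interval of 2.14 to 2.53 lay above those of the other matched genes, of which GSTM3 reached highest, to 1.67.

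MGST3 was the most abundant of the 7 genes and had the smallest estimated fold change. Control libraries held 88.8, 101.8 and 89.6 FPKM and SQ0048 libraries 103.5, 102.5 and 105.3 FPKM. Control replicate 2 stood near the SQ0048 libraries, while the other controls were lower. The log2 fold change was 0.15 with a 95% confidence interval of -0.01 to 0.32 (limma adjusted p = 0.150). Without control replicate 2 MGST3 was called, at a log2 fold change of 0.22 (limma adjusted p = 0.043, 0.043 to 0.452 over 15 alternatives). The ratio of MGST2 to MGST3 within a library was 0.0604, 0.0519 and 0.0521 in control and 0.249, 0.247 and 0.259 in SQ0048 libraries. The groups of ratios did not overlap and differed by 2.20 in log2 (exact permutation test, two-sided, p = 0.1). The ratio of MGST2 to MGST1, another enzyme of the family, went from 0.0664 ± 0.0253 in control to 0.437 ± 0.0219 in SQ0048 libraries, again without overlap (exact permutation test, two-sided, p = 0.1). Both of these ratios were chosen after their values were seen. Over the 4 ratios tested, Benjamini-Hochberg adjustment left each p at 0.1.

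**Figure D2:**
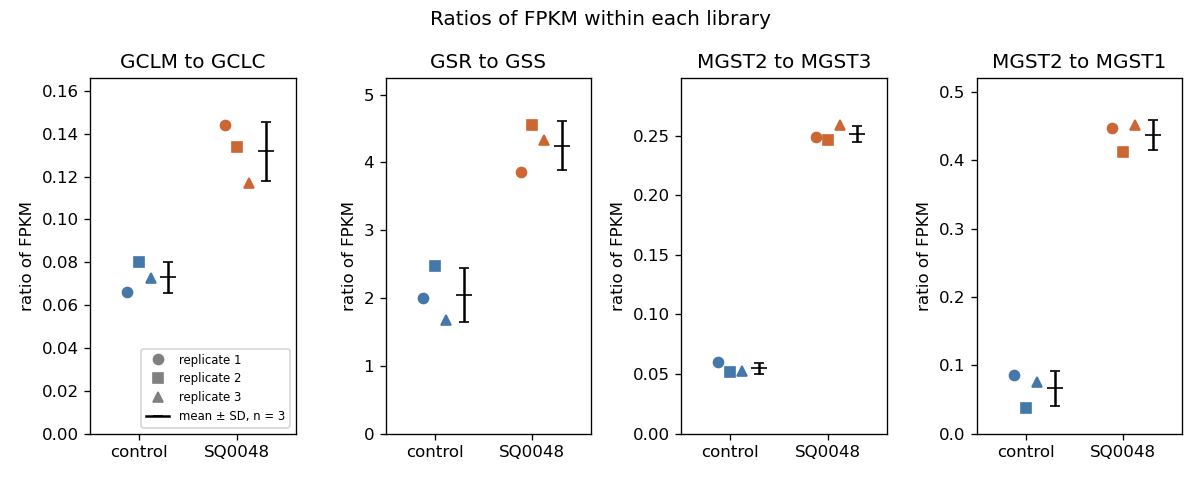
Ratios of FPKM within each library (linear axes from 0), with each point a library and the bar the mean ± SD (n = 3). Each of the 4 ratios is higher in the 3 SQ0048 libraries than in the 3 control libraries, and GCLM to GCLC goes from 0.0729 to 0.132 on average.

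Another microsomal transferase, MGST1, a detoxifying enzyme of the endoplasmic reticulum and outer mitochondrial membrane, was not called. It measured 62.4, 139.9 and 61.9 FPKM without bacteria and 57.6, 61.3 and 60.4 FPKM with SQ0048 (log2 difference -0.45, limma adjusted p = 0.372). Control replicate 2 stood apart, and the other controls were close to the SQ0048 libraries. Of the FPKM summed over MGST1, MGST2 and MGST3, MGST2 took 2.85% ± 0.654 in control and 13.8% ± 0.391 in SQ0048 libraries (SD, n = 3 each), while MGST3 took 51.8% ± 9.15 and 54.7% ± 0.624.

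The order of levels differed between the groups. In each control library the genes ranked, from the highest FPKM, as MGST3, GCLC, GSR, GSS, MGST2, GCLM and GSTM3, and no neighbours in this order overlapped in range over the control libraries. In each SQ0048 library MGST2 and GCLM stood above GSS. The ranges of GCLM (9.98 to 11.6 FPKM) and GSS (9.61 to 10.6 FPKM) overlapped there, whereas those of MGST2 and GCLM did not. By mean FPKM over the 6 libraries, MGST3 was at percentile 97.0 and GCLC at percentile 95.7 of all features, while GSTM3 was at percentile 53.2. The table places 6 of the 7 genes in the KEGG pathway of glutathione metabolism, together with 38 further features. GSR is the member without that entry.

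Beyond these genes, 61 symbols of the wider glutathione pathway were looked up, of which 39 were found and 31 passed the filter. Of the 31, 3 rose, 1 fell and 27 did neither, and the median log2 fold change was 0.13. These shares are 9.68% and 3.23%, against 8.59% and 15.8% of all features in the same directions, so the share of higher calls was close to the background. The SQ0048 libraries lay above all controls in 12 of the 31 (38.7%, against 17.4% of all features) and below them in 3 (9.68%, against 28.3%).

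Cystine uptake supplies the cysteine for the first step. SLC3A2, the heavy chain that pairs with several amino acid transporters including the cystine importer, measured 69.5, 69.7 and 69.2 FPKM without bacteria and 108.0, 102.9 and 105.3 FPKM with SQ0048. It rose by 0.60 ± 0.04 in log2 (SE, limma adjusted p = 0.0017). SLC7A11, the light chain of that importer, measured 1.24, 1.36 and 1.85 FPKM without bacteria and 2.21, 2.96 and 2.14 FPKM with SQ0048. The groups did not overlap, but SLC7A11 was not called (log2 difference 0.68, limma adjusted p = 0.062). It was called with size factors and after quantile normalization (limma adjusted p = 0.042 with size factors, 0.031 to 0.154 over 14 alternatives). SLC7A11 was named after its values were seen.

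CHAC1, a cytosolic enzyme that breaks glutathione down and is known as a target of the integrated stress response, rose too. It measured 3.53, 4.07 and 3.60 FPKM without bacteria and 23.5, 21.4 and 6.81 FPKM with SQ0048. SQ0048 replicate 3 lay well below the others, though still above the controls. The log2 fold change was 1.99 ± 0.48 (SE, limma adjusted p = 0.035). Leaving out control replicate 1, 2 or 3 or SQ0048 replicate 1 or 2 ended the call (limma adjusted p = 0.095, 0.079, 0.098, 0.097 and 0.087, 0.0025 to 0.098 over 15 alternatives).

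Of 5 tested genes of glutathione export and mitochondrial import, 1 rose and 1 fell. ABCC1, a pump that carries glutathione conjugates and oxidised glutathione out of the cell, measured 13.8, 14.1 and 16.4 FPKM without bacteria and 21.3, 23.9 and 26.1 FPKM with SQ0048, a rise of 0.68 in log2 (limma adjusted p = 0.010). ABCC4, a related pump of cyclic nucleotides and organic anions, measured 127.2, 124.2 and 138.3 FPKM without bacteria and 88.1, 91.6 and 96.6 FPKM with SQ0048, and fell by 0.50 in log2 (limma adjusted p = 0.0066). In both genes the groups did not overlap. ABCC3, another export pump, named after its values were seen, measured 9.27, 10.56 and 10.57 FPKM without bacteria and 12.50, 10.80 and 12.51 FPKM with SQ0048, again with no overlap, and was not called (log2 difference 0.23, limma adjusted p = 0.128).

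None of the 4 tested peroxidases, 4 soluble or mitochondrial transferases, 2 membrane transferases or 6 glutaredoxins and glyoxalases of the wider list was called (limma). At an unadjusted p under 0.05 there were 1 peroxidase, GPX3 (0.30 in log2), and 1 glutaredoxin, GLRX5 (1.71 in log2, and 2.41 without control replicate 3), both named after their values were seen. That cutoff was met by 5053 of all 13144 tested features (limma). The most abundant of each were GPX7, a peroxidase of the endoplasmic reticulum, GSTK1, a transferase of mitochondria and peroxisomes, MGST1 and GLRX3, a monothiol glutaredoxin. GPX7 stood at 28.0 ± 0.827 and 29.1 ± 2.31 FPKM in control and SQ0048 libraries (SD, n = 3 each). GSTK1 ranged from 26.7 to 31.4 FPKM in control and from 30.7 to 33.1 FPKM in SQ0048 libraries. GLRX3 was at 71.3 ± 0.624 and 75.0 ± 1.27 FPKM. The signs of GPX7 and GLRX3 turned after rescaling to TPM.

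**Figure D3:**
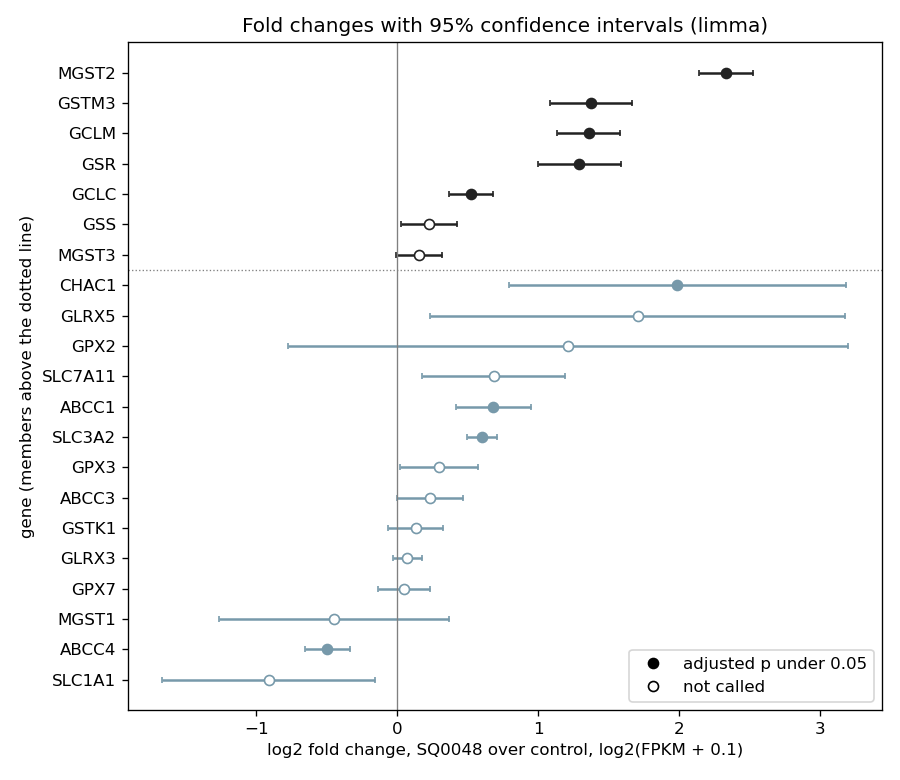
Log2 fold changes (SQ0048 over control, on log2(FPKM + 0.1)) with 95% confidence intervals from limma for the 7 matched genes and for the 14 genes of the wider list that are named. Filled points passed an adjusted p of 0.05. MGST2 at 2.34 lies farthest right, and ABCC4 at -0.50 is the called gene to the left of 0.

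Many bovine glutathione enzymes carry no symbol in the table. Among 13 such features, taken after their values were seen by their orthology entry for glutathione transferase or by their description, 10 were tested. The descriptions searched for were Glutathione S-transferase, Glutaredoxin-1 and Gamma-glutamylcyclotransferase, so peroxidases without a symbol were not looked for. Of the 10, 5 rose and none fell in limma, against 8.59% and 15.8% of all tested features. At an unadjusted p under 0.05 (limma) 8 of the 10 passed, against 5053 of all 13144 tested features. Of these 8, 1, described as Gamma-glutamylcyclotransferase, was lower (log2 difference -0.37, unadjusted p = 0.038 from limma), and the rest were higher. Of the 5 that rose, the features MSTRG.10901 and MSTRG.8326, each with an orthology entry for glutathione transferase (log2 difference 0.48 and 0.68), were called under 6 and 7 of 15 alternatives. The most abundant by far was a feature with the StringTie identifier MSTRG.10432 and the Ensembl identifier ENSBTAG00000003548, annotated with glutathione transferase activity. It measured 401.5, 417.7 and 390.4 FPKM without bacteria and 540.7, 522.0 and 544.3 FPKM with SQ0048. The groups did not overlap, and it rose by 0.41 ± 0.05 in log2 (SE, limma adjusted p = 0.0047), and by 0.20 after quantile normalization (limma adjusted p = 0.035, 0.0035 to 0.049 over 15 alternatives). Its level was above that of MGST3 in every library. A feature described as Glutathione S-transferase theta-1 measured 54.5, 46.3 and 51.2 FPKM without bacteria and 66.5, 64.2 and 64.6 FPKM with SQ0048 (log2 difference 0.37, limma adjusted p = 0.019, called under 10 of 15 alternatives).

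The 5 called genes among the 7 stayed called under every alternative that tested them. Over these alternatives the log2 fold change lay between 2.15 and 2.41 for MGST2, 1.057 and 1.497 for GSTM3, 1.197 and 1.466 for GCLM, 1.17 and 1.38 for GSR, and 0.44 and 0.60 for GCLC. GSTM3 was not tested among features averaging 5 FPKM or more.

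**Figure D4:**
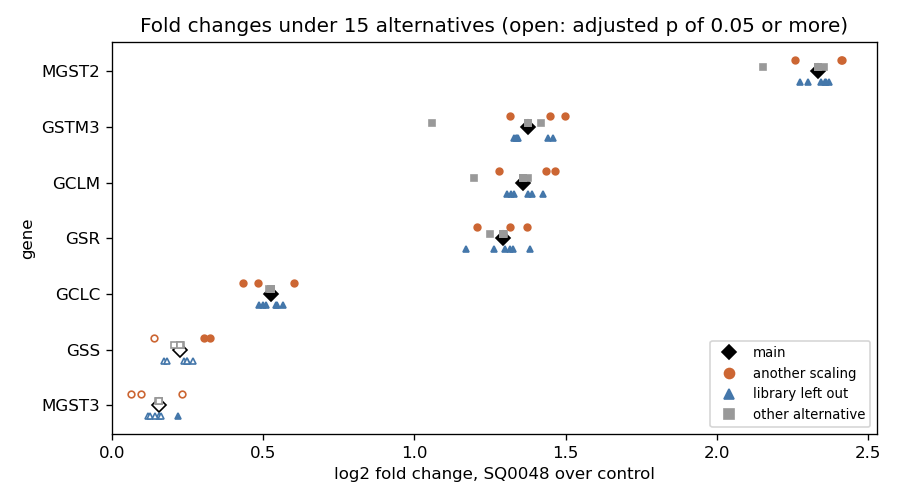
Log2 fold changes of the 7 matched genes in the main analysis (diamonds) and under 15 alternatives, with filled symbols for an adjusted p under 0.05. The 5 called genes stay filled throughout, and all values of MGST2 lie between 2.15 and 2.41. GSS is filled for 2 scalings and MGST3 for 1 left-out library.

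The libraries summed to between 343933 and 378772 FPKM, and their read depth cannot be recovered from such values, so no counting error is given. Pearson correlations of log2(FPKM + 0.1) across the tested features were 0.917 to 0.932 within a group and 0.894 to 0.905 between groups. In all, 3201 features were called, of which 64.7% were lower, against 77.8% after rescaling to TPM, 51.8% with size factors and 54.7% after quantile normalization. The 8 epithelial markers summed to 4980 to 5405 FPKM in control and 5901 to 6186 FPKM in SQ0048 libraries, led by the keratins KRT19 and KRT18. Of 7 tested, 2 rose, KRT8 and KRT18 (limma). At an unadjusted p under 0.05 (limma) 3 of the 7 passed, none of them lower, against 5053 of all 13144 tested features. KRT8 and KRT18 were each called under 13 of 15 alternatives, with log2 differences down to 0.097 and 0.076. The 8 fibroblast markers summed to 56.7 to 61.6 and 55.1 to 56.2 FPKM, led by COL3A1 at 49.8 to 54.3 and 47.1 to 48.3 FPKM. Of 5 tested, COL1A1 and COL1A2 rose (called under 8 and 10 of 14 alternatives) and POSTN fell (called under 13 of 14). The endothelial markers found (2 of 4) summed to 1.52 to 1.57 FPKM in control and 2.40 to 2.49 FPKM in SQ0048 libraries, all but 0.04 FPKM of it from VWF, which rose, while PECAM1 was at 0.04 FPKM or at 0. The leukocyte markers found (4 of 6) summed to 0.40 to 0.66 FPKM in control and to at most 1 FPKM in SQ0048 libraries, most of it from CD68, with CD3E at 0 in 5 of 6 libraries and CD79A at 0 in all. The smooth muscle markers found (3 of 4), led by CNN1 and DES, summed to at most 0.31 FPKM. The part of the higher epithelial and endothelial marker sums in the changes of the glutathione genes was not tested.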

How the data were processed

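RNA was sequenced from 3 control and 3 SQ0048-treated samples of BVECs, grouped by their titles. The authors deposited 1 table of FPKM values with 2 decimals, 1 column per library. The paper credits trimming to Cutadapt, alignment to Hisat 2.0 and FPKM to Cufflinks, whereas StringTie 1.3.0, HISAT2 2.0, Bowtie 0.12.2 and the build ARS-UCD1.2 come from the submitters' processing notes. For the libraries, the paper names both a TruSeq stranded mRNA kit and an NEB Next Ultra RNA kit. Whether the quantification used strand is not stated in the sources read, and 0 columns of values were left unused. Counts cannot be recovered from FPKM, so the count test of the study was replaced by limma 3.58.1 in R 4.3.3 (lmFit, eBayes with a trend, two-sided, condition as the only term) on log2(FPKM + 0.1), over features averaging 0.5 FPKM or more. Fold changes on this scale understate those of low genes. Ratios were tested with exact permutation tests in scipy 1.17.1, and figures were drawn with matplotlib 3.10.9. A symbol with several features was taken from the one with the highest mean. The genes, the wider list, the markers and the tests were chosen with earlier results of these data known. Named genes were the 10 members, the called genes of the wider list, the most abundant tested gene of each of its subgroups without a call, and the 2 most abundant of each marker list. SLC7A11, SLC1A1, ABCC3, GLRX5, GPX2, GPX3, the markers KRT8, COL1A2, POSTN and CD79A and the features without a symbol were added after their values were seen. The procedure was tested on simulated data. Sequences of these genes were not used here.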

Additional observations from a re-analysis of the deposited data

How the results depend on the processing

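The count of 7 matched genes that rose, 5, was 4 with a mean of at least 5 FPKM, which leaves GSTM3 untested, and 6 with size factors, after quantile normalization (GSS added) and without control replicate 2 (MGST3 added). No matched gene was called lower under any of the 15 alternatives. The count over all features, 3201, was 1662 to 2966 with 1 library left out, at 1796, 1946, 1662 and 1814 without control replicate 1 or 3 or SQ0048 replicate 1 or 3. Same-numbered libraries did not deviate together (Pearson correlation of -0.012, 0.001 and 0.010) and not every library correlated best with its own number. Such values cannot show whether equal numbers share a culture or a cow, which is not given in the sources read. With the replicate number as a block the count was 847, with the same 5 matched genes called, while CHAC1 was lost (adjusted p = 0.069 from limma). The wider list had 2 to 3 genes higher and 1 to 2 lower with 1 library left out, SLC1A1 being the second lower gene without control replicate 2. The ratio of GCLM to GCLC differed by 0.68 in log2 with a pseudocount of 1, and by 0.78 to 0.94 with 1 library left out. That of GSR to GSS differed by 0.93 to 1.21. The ratio of GPX4 to GPX1 was not run, since neither gene was matched. GPX7 and GLRX3 turned to -0.039 and -0.019 after rescaling to TPM (adjusted p = 0.754 and 0.788 from limma), and GPX7 lay between 0.00 and 0.114 with 1 library left out. The same rescaling moved the median log2 fold change over all tested features from -0.081 to -0.171. The cause of the changes between settings was not tested. The paper gives read depth as a mean of each group, and the depth of each library is unknown. The precision of low genes such as GSTM3 thus rests on 3 libraries a group.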

Other observations

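A few genes of the wider glutathione list differed more between libraries of 1 group than between the groups. They were chosen after their values were seen, and no explanation was tested. GLRX5, a mitochondrial glutaredoxin of iron-sulfur cluster assembly, measured 11.96, 14.3 and 56.8 FPKM without bacteria and 72.3, 66.4 and 71.4 FPKM with SQ0048. Control replicate 3 lay near the SQ0048 libraries, and GLRX5 was called without it alone (2.41 in log2, limma adjusted p = 0.0023), not with all libraries (limma adjusted p = 0.091) or under the other alternatives (up to 0.205). GPX2, an epithelial glutathione peroxidase, measured 3.60, 15.8 and 15.8 FPKM without bacteria and 36.9, 33.9 and 9.12 FPKM with SQ0048, and the groups overlapped. SLC1A1, a transporter of glutamate and cysteine, measured 17.0, 37.0 and 18.1 FPKM without bacteria and 11.8, 12.2 and 11.7 FPKM with SQ0048 (log2 difference -0.91, limma adjusted p = 0.082). Control replicate 2, the highest of these, was also the library in which MGST1 stood at 139.9 FPKM.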
